A study of Mus musculus with 48 samples.

Results

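The 9 genes described here carry pyruvate into the mitochondrion and control its conversion to acetyl-CoA: Mpc1, Mpc2, Pdha1, Pdhb, Dlat, Pdk1, Pdk2, Pdk3 and Pdp1. They were chosen by name from knowledge of the pathway, matched by symbol to the mouse gene IDs of the count files, and make up 9 of 55487 genes listed there. All 9 were measured in every RNA library, with 157 to 5668 counts each, and all 9 entered the tests. RNA and the histone marks H3K4me3, H3K4me1 and H3K27ac had been profiled in cells sorted from the limbs of C57BL/6 mice at postnatal day 3. KO cells came from mice with floxed Ptip alleles and Cre under the control of Col2a1, the gene of cartilage collagen (Ptipf/f;Col2a1-cre), and WT cells came from mice with the floxed alleles and no Cre (Ptipf/f). Both genotypes therefore carry the floxed alleles, and the deletion is limited to cells that use the Col2a1 promoter and their descendants. Cells of 3 populations were sorted, with 2 RNA libraries per population and genotype: skeletal stem cells (SSC), the progenitors of bone, cartilage and stroma (BCSP), and the precursors of these progenitors (pBCSP).

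Pyruvate, the end product of glycolysis, crosses the inner mitochondrial membrane through a carrier made of the subunits MPC1 and MPC2. In the matrix the pyruvate dehydrogenase complex converts it to acetyl-CoA for the citric acid cycle. Its E1 enzyme is built of PDHA1 (alpha) and PDHB (beta), and DLAT is its E2 core. The kinases PDK1, PDK2 and PDK3 phosphorylate PDHA1 and switch the complex off, and the phosphatase PDP1 removes the phosphate and switches it back on. Pdk1 is known as a target of the hypoxia-inducible factor HIF, and cartilage, a tissue without blood vessels, is known for its reliance on glycolysis.

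The RNA libraries held 15495915 to 22670899 counts. Levels are given as counts per 1000000 (CPM) on library sizes with TMM scaling (the trimmed mean of M values), and differences as log2 KO minus WT with their standard error (SE). CPM is not corrected for gene length, so levels are compared between libraries and not between genes. Whether the replicates are separate animals is not in the labels, and the p-values therefore reflect no more than the spread between the libraries, which may be technical. Paxip1, the current symbol of the targeted Ptip, had 0 to 3.48 CPM in the 6 KO libraries and 7.25 to 14.6 CPM in the 6 WT libraries (log2 -4.52 ± 0.76, adjusted p = 0.0396, edgeR), and that call was lost when any of 9 single libraries was left out. Which exons are floxed was not looked up here. SSC KO replicate 2 stood apart, with counts in 13987 genes against 20965 to 23831 genes in the other KO and the WT libraries. The chondrocyte markers Col2a1, Sox9, Acan, Col9a1 and Matn1 were above 0 in every library and summed to 35567 to 61861 CPM in KO and 25606 to 70745 CPM in WT libraries, most of it Col2a1 (-0.07 ± 0.24 log2, adjusted p = 0.90). The others were higher in KO: Matn1 (3.00 ± 0.33 log2, adjusted p = 0.0244) and Col9a1 (1.16 ± 0.21 log2, adjusted p = 0.0484) passed, and Acan (1.14 ± 0.25 log2, adjusted p = 0.0657) and Sox9 (0.51 ± 0.22 log2, adjusted p = 0.240) did not. The part of this in the levels of the 9 genes was not tested. Cd200, a surface marker of SSC, was at 224 and 303 CPM in SSC KO and 289 and 198 CPM in SSC WT libraries, above all libraries of the other populations, and Eng, a surface marker of BCSP, was highest in BCSP, at 85.2 and 72.8 CPM in KO and 168 and 127 CPM in WT. Of 6 surface markers of the sort, 5 were tested. On average 0 of these were above WT and 5 below (median -0.71 log2), and 0 passed (edgeR). Itgav was at 16.5 to 64.4 CPM in KO and 59.9 to 71.7 CPM in WT. Enpep was at 0 to 4.16 CPM in KO and 1.61 to 7.40 CPM in WT. For Tek the ranges were 0 to 4.16 CPM in KO and 0.461 to 10.6 CPM in WT.

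The promoters of the kinases Pdk1, Pdk2 and Pdk3 and of their substrate Pdha1 are shown to set the 3 kinases beside their substrate. Each runs from 250 bases before to 50 bases after the most upstream start listed by RefSeq on GRCm38.p6, read 5′ to 3′ on the gene's own strand. They lie at chr2:71872974-71873273 (plus strand, Pdk1), chr11:95041322-95041621 (minus strand, Pdk2), chrX:93832101-93832400 (minus strand, Pdk3) and chrX:160138381-160138680 (minus strand, Pdha1). Capitals mark every match to ACGTG or GCGTG, the core letters bound by HIF, on either strand, so that CACGT and CACGC are the same motifs read on the other strand.
Pdk1: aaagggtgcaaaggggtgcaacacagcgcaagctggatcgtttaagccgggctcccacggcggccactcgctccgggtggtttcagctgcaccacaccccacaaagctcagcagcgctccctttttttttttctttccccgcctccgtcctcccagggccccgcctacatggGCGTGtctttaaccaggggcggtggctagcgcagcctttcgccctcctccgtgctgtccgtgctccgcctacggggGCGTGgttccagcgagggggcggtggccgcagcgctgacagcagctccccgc
Pdk2: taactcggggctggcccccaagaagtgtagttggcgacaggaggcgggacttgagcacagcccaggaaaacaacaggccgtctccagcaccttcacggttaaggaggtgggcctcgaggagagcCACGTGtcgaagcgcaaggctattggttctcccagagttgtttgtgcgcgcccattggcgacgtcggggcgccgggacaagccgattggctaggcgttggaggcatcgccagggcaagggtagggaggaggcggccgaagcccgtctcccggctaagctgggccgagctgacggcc
Pdk3: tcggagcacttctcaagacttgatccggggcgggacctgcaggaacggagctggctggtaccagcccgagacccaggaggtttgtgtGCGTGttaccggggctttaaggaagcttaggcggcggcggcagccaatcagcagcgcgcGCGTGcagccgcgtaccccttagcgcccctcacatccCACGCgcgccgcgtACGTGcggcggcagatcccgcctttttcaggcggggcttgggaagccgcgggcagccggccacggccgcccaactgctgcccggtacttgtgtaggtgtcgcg
Pdha1: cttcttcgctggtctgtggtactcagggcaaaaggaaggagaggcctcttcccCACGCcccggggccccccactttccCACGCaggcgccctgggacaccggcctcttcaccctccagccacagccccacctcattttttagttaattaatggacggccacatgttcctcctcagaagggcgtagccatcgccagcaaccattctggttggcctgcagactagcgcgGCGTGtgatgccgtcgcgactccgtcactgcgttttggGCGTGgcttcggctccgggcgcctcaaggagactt

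The Pdk1 promoter held GCGTG 2 times, at 78 and 2 bases before the start. The Pdk3 promoter held GCGTG 3 times and ACGTG 1 time, and the Pdha1 promoter GCGTG 4 times. In Pdk2 the capitals are 1 palindrome in which ACGTG overlaps its own match on the other strand. Of the 8 members with a listed promoter, 7 held at least 1 of the 2 motifs at the most upstream start, and Dlat, the E2 subunit, held none. A second promoter is listed for Mpc1, Pdk1 and Pdk2, and it held neither motif in any of them. The members thus had a match in 7 of their 11 listed promoters. Over all 32851 listed promoters, second ones included, the share was 43.8%, with 19.6% for ACGTG and 32.4% for GCGTG. These promoters were not matched to the members, whose GC content was 61.0 to 73.7% at the most upstream start. AAGGTCA, the core of the estrogen-related receptor motif, was found in 0 of the 8 members and in 4.72% of all promoters. A match describes the letters in the window and is not a binding site.

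Averaged over the 3 populations, 0 of the 9 genes passed an adjusted p of 0.05 between KO and WT in edgeR, where 205 of 17494 genes passed (1.17%). At an unadjusted p under 0.05, where 3431 genes stood (19.6%), there were 3 members: the kinases Pdk1 and Pdk3, both higher in KO like 11.0% of all genes, and the phosphatase Pdp1, lower in KO like 8.57%. The median difference of the 9 was 0.16 log2, against -0.09 log2 for all genes tested. With DESeq2, which called 1693 genes (9.68%), Pdk1 (log2 0.79 ± 0.19, adjusted p = 0.00154) and Pdk3 (log2 0.55 ± 0.14, adjusted p = 0.00406) passed and the other 7 members did not. These tests take the 12 libraries as independent, but same-numbered libraries of different populations deviated together, with r of 0.29 to 0.49 in KO and 0.28 to 0.33 in WT. With that correlation fitted in limma-voom, Pdk1 was at 0.79 log2 (adjusted p = 0.137) and Pdk3 at 0.56 log2 (adjusted p = 0.194). With the counts summed over the populations, 2 KO against 2 WT values, Pdk1 was at 0.84 log2 and Pdk3 at 0.60 log2 (adjusted p = 0.591 for both, edgeR). In whole sorted cells a difference can come from the RNA per cell or from the share of cells that make it, and these cannot be told apart here.

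Pdk1 (ENSMUSG00000006494; GRCm38 chromosome 2, 71873215 to 71903858) encodes the kinase known to respond to low oxygen. In SSC it had 97.1 and 126 CPM in KO and 64.8 and 53.7 CPM in WT libraries. In pBCSP it had 105 and 146 CPM in KO and 72.5 and 80.8 CPM in WT libraries, and in BCSP 99.2 and 121 CPM in KO and 57.6 and 73.1 CPM in WT libraries. Every KO library lay above every WT library, a pattern found in 538 of 17494 genes (3.08%). The average difference was 0.79 ± 0.16 log2, or 1.73-fold (95% interval 1.35 to 2.23), and missed the threshold in edgeR (adjusted p = 0.0566). Taken singly, SSC differed by 0.91 ± 0.28 log2, and the difference was 0.71 ± 0.28 log2 in pBCSP and 0.75 ± 0.28 log2 in BCSP, and none passed (adjusted p = 0.524, 0.775 and 0.710, edgeR). KO replicate 2 was above KO replicate 1 in each population. Without the 3 KO replicate 2 libraries the average was 0.59 log2 (adjusted p = 0.0689), and without the 3 KO replicate 1 libraries it was 0.95 log2 (adjusted p = 0.000761, edgeR). The second of these fits, added after seeing the data, called 9529 genes (50.2%) and had a median of -0.51 log2 over all genes, and both leave 1 KO library per population, which is taken to vary like the WT groups.

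Pdk3 (ENSMUSG00000035232; chromosome X, 93764616 to 93832150) is an X-linked kinase of the same family. In SSC it had 110.3 and 114 CPM in KO and 79.6 and 58.4 CPM in WT libraries. In pBCSP it had 99.8 and 90.5 CPM in KO and 69.7 and 70.9 CPM in WT libraries, and in BCSP 95.6 and 92.1 CPM in KO and 63.5 and 66.2 CPM in WT libraries. Here too all 6 KO libraries lay above all 6 WT libraries. The average difference was 0.56 ± 0.13 log2, or 1.47-fold (95% interval 1.19 to 1.81), short of the threshold (adjusted p = 0.0796, edgeR). It was 0.58 log2 without KO replicate 2 and 0.51 log2 without KO replicate 1. Xist, the RNA of the inactive X chromosome, was at 9.74 to 14.4 CPM in the 3 WT replicate 1 libraries, at 0 in the 3 WT replicate 2 libraries and at 0 to 1.83 CPM in KO libraries. Y-linked RNA was present in every library, also in those with Xist. Ddx3y was at 111 to 188 CPM in KO and 77.9 to 204 CPM in WT, and Uty at 13.6 to 46.1 CPM in KO and 7.84 to 35.7 CPM in WT. The part of Xist in the levels of the X-linked Pdk3 and Pdha1 was not tested. Gm46689 overlaps Pdk3, Map3k15 and Gm39547 overlap Pdha1, Gm11513 and LOC115486429 overlap Pdk2, and 4930506C21Rik overlaps Mpc1. Whether counting used strand is not stated, so reads of overlapping genes may not be separated.

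Pdk2 (ENSMUSG00000038967; chromosome 11, 95026258 to 95041371), the kinase most widely found across tissues, had the widest spread of the 3. SSC KO had 47.1 CPM in replicate 1 and 8.70 CPM in replicate 2, against 39.6 and 35.8 CPM in SSC WT. In pBCSP it had 55.8 and 74.0 CPM in KO and 40.7 and 34.7 CPM in WT libraries, and in BCSP 43.7 and 78.4 CPM in KO and 47.9 and 39.7 CPM in WT libraries. The groups overlapped, with 4 of 6 KO libraries above the WT mean of their population. The average was 0.28 ± 0.36 log2, with a 95% interval of -0.53 to 1.08 (adjusted p = 0.700, edgeR), and it was 0.52 log2 without SSC KO replicate 2 and -0.27 log2 without SSC KO replicate 1.

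**Figure D1:**
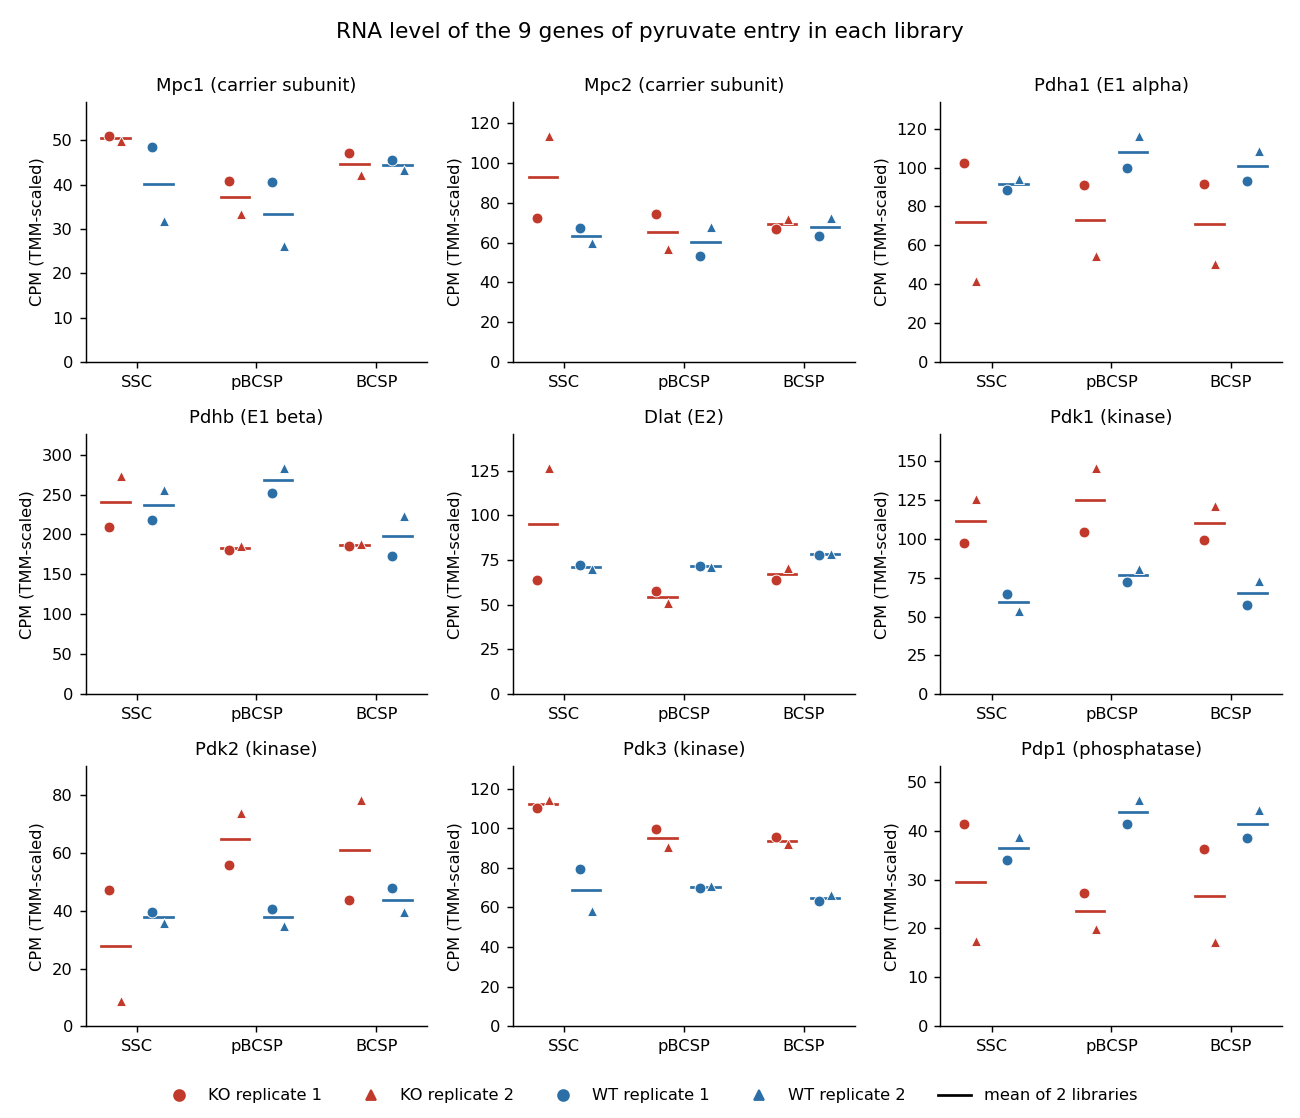
RNA level (CPM, TMM-scaled) of the 9 genes in each of the 12 libraries, by population, with KO in red left of WT in blue, circles for replicate 1, triangles for replicate 2 and a line at the mean of 2 libraries. For Pdk1 and Pdk3 all KO points lie above all WT points, and for Pdha1 and Pdp1 the KO replicate 2 triangles lie below all other points of those genes.

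Pdp1 (chromosome 4, 11958183 to 11966450), the phosphatase that counters the kinases, differed in the other direction. In SSC it had 41.4 and 17.5 CPM in KO and 34.1 and 38.8 CPM in WT libraries. In pBCSP it had 27.3 and 19.8 CPM in KO and 41.3 and 46.2 CPM in WT libraries, and in BCSP 36.3 and 17.2 CPM in KO and 38.6 and 44.2 CPM in WT libraries. SSC KO replicate 1 and BCSP KO replicate 1 lay within the WT range of 34.1 to 46.2 CPM and the other 4 KO libraries lay below it. The average difference was -0.61 ± 0.27 log2, with a 95% interval of -1.22 to -0.00214 (adjusted p = 0.253, edgeR). It rested on KO replicate 2: without those 3 libraries it was -0.23 log2, and without the 3 KO replicate 1 libraries -1.18 log2. Both fits leave 1 KO library per population. The second was added after seeing the data and had a median of -0.51 log2 over all genes.

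Pdha1 (ENSMUSG00000031299; chromosome X, 160122219 to 160138430), the E1 alpha subunit that the kinases phosphorylate, followed the same pattern. SSC had 103 and 41.5 CPM in KO and 88.6 and 94.2 CPM in WT libraries. pBCSP had 91.2 and 54.4 CPM in KO and 99.8 and 116 CPM in WT libraries, and BCSP 91.7 and 50.6 CPM in KO and 93.1 and 109 CPM in WT libraries. The 3 KO replicate 1 libraries lay within the WT range of 88.6 to 116 CPM, and the 3 KO replicate 2 libraries were at 0.454 to 0.504 times the WT mean of their population. The average difference was -0.47 ± 0.26 log2 (adjusted p = 0.346, edgeR), -0.07 log2 without KO replicate 2 and -1.06 log2 without KO replicate 1. Both of these fits leave 1 KO library per population, and the one without KO replicate 1 had a median of -0.51 log2 over all genes. Across the 12 libraries log2 CPM of Pdha1 and Pdp1 had a Pearson r of 0.962, the highest of the 36 pairs among the 9 genes, and that of Pdk1 and Pdk3 was 0.825. These values are a description over libraries that share genotype and replicate number.

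Pdhb (chromosome 14, 8165991 to 8173303), the E1 beta subunit, showed no such split between the KO replicates. It had 209 and 273 CPM in SSC KO and 218 and 255 CPM in SSC WT, and 185 and 188 CPM in BCSP KO and 173 and 223 CPM in BCSP WT. In pBCSP the KO libraries, at 180.0 and 186 CPM, were both below the WT libraries, at 252 and 283 CPM. That difference of -0.55 ± 0.24 log2 had an unadjusted p of 0.0496 (adjusted p = 0.792, edgeR), where 1096 genes (6.27%) had an unadjusted p under 0.05 in pBCSP. On average Pdhb differed by -0.20 ± 0.14 log2, with a 95% interval of -0.52 to 0.11 (adjusted p = 0.456, edgeR).

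Dlat (chromosome 9, 50634633 to 50659780), the E2 subunit, had 63.6 and 127 CPM in SSC KO and 72.3 and 70.1 CPM in SSC WT. It had 58.0 and 51.0 CPM in pBCSP KO and 71.7 and 71.3 CPM in pBCSP WT, and 64.0 and 70.6 CPM in BCSP KO and 78.0 and 78.7 CPM in BCSP WT. SSC KO replicate 2 was the highest of the 12 libraries, while the other 5 KO libraries were below the WT mean of their population. The average of -0.06 ± 0.18 log2 (95% interval -0.47 to 0.34, adjusted p = 0.873, edgeR) therefore combines values of both signs, and was -0.26 log2 at the lowest and 0.08 log2 at the highest when single libraries were left out.

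Neither carrier gene passed. Mpc1 (chromosome 17, 8283787 to 8297667) had 33.3 to 50.9 CPM in the 6 KO libraries (median 44.7) and 26.2 to 48.5 CPM in the 6 WT libraries (median 42.0), an average difference of 0.16 ± 0.18 log2 (95% interval -0.25 to 0.58, adjusted p = 0.650, edgeR). Mpc2 (chromosome 1, 165461260 to 165481218) had 56.6 to 114 CPM in KO (median 72.3) and 53.4 to 72.4 CPM in WT (median 65.3), a difference of 0.23 ± 0.17 log2 (95% interval -0.14 to 0.61, adjusted p = 0.472, edgeR). Both ranges overlap between genotypes, and the highest Mpc2 value is again SSC KO replicate 2. The Mpc1 counts are uncertain, because the pseudogene Mpc1-ps, a near-identical copy, had 25.4 to 49.0 CPM in KO and 23.1 to 42.4 CPM in WT libraries and how shared reads were counted is not given. Mpc1-ps was also the gene whose log2 CPM was most like that of Mpc1 over the 12 libraries (Pearson r = 0.931).

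**Figure D2:**
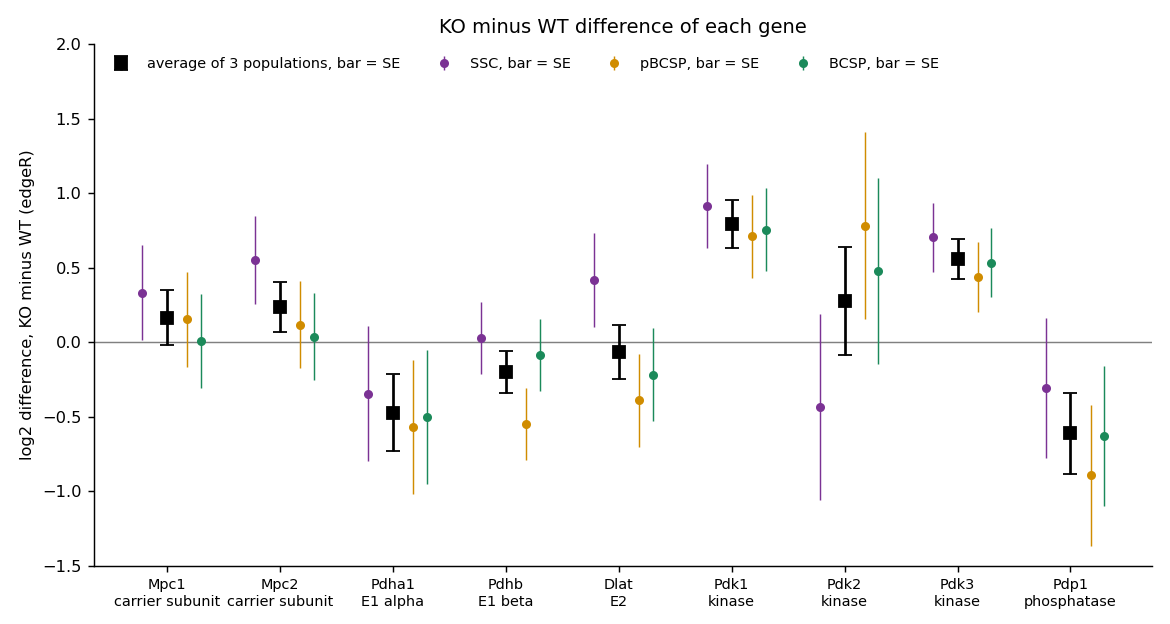
Log2 difference, KO minus WT, of the 9 genes from edgeR, as the average over the populations (black squares) and in SSC, pBCSP and BCSP (coloured circles), with bars of 1 SE. Pdk1 and Pdk3 are positive in all 3 populations, Pdha1 and Pdp1 negative in all 3, and Pdk2, Pdhb and Dlat change sign between populations.

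Within single populations 0 of the 9 genes passed in SSC, pBCSP or BCSP, as did 0 of the 17494 genes in each (0%, edgeR). At an unadjusted p under 0.05 there were Pdk1 and Pdk3 in SSC, both higher, where 1643 genes stood (9.39%, 5.71% higher and 3.68% lower). In pBCSP there were Pdk1, higher, and Pdhb, lower (6.27%, 3.74% higher and 2.53% lower), and in BCSP Pdk1 and Pdk3, both higher, where 1095 genes stood (6.26%, 4.23% higher and 2.03% lower). DESeq2 called 151 genes in SSC (0.863%), 91 in pBCSP (0.520%) and 108 in BCSP (0.617%), and 0 of the 9. The test of whether the KO effect differed between populations called 0 genes (0%) and 0 members in edgeR, with 240 genes (1.37%) and 0 members at an unadjusted p under 0.05, and the lowest unadjusted p among the members was 0.211, for Dlat. In SSC the result turned on 1 library. Without SSC KO replicate 1, whose removal leaves the outlying replicate 2 as the only SSC KO library, edgeR called Pdk1 (1.10 log2), Pdk2 (-2.10 log2) and Dlat (0.84 log2) in SSC, where it called 5908 of 19222 genes (30.7%), and Pdha1, Pdk1, Pdk3 and Pdp1 on average, where it called 6147 (32.0%). That fit takes the lone library to vary like the other groups.

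Levels of the 9 genes did not pass a test between populations in either genotype. Within KO 0 of 17494 genes passed (0%, edgeR), with 637 (3.64%) at an unadjusted p under 0.05, and within WT 0 passed (0%), with 495 (2.83%). In WT the lowest unadjusted p of such a test was that of Pdhb (0.249, edgeR F test), whose level was 236 ± 26.6 CPM in SSC, 268 ± 21.9 CPM in pBCSP and 198 ± 35.6 CPM in BCSP (SD, n = 2 libraries each). In KO it was that of Dlat (0.0775, edgeR F test), whose level was 95.1 ± 44.5 CPM in SSC, 54.5 ± 4.90 CPM in pBCSP and 67.3 ± 4.67 CPM in BCSP (SD, n = 2 libraries each). The widest SD of these is that of SSC KO, whose replicates were at 63.6 and 127 CPM. Of 54 pairwise comparisons of populations the lowest unadjusted p was 0.0303, for Dlat in KO (pBCSP minus SSC -0.80 ± 0.32 log2, adjusted p = 0.859, edgeR).

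Ratios of counts within a library cancel depth and scaling. Pdk1 was set against Pdp1 and Pdha1 with their values known, so the gene with the largest positive difference among the 9 stands over the ones with the largest negative differences. Per count of Pdp1 there were 2.34 and 7.20 counts of Pdk1 in SSC KO and 1.9 and 1.38 in SSC WT. In pBCSP there were 3.84 and 7.34 in KO and 1.76 and 1.75 in WT, and in BCSP 2.73 and 7.07 in KO and 1.49 and 1.65 in WT. All 6 KO libraries lay above all 6 WT libraries, as they did for Pdk1 alone, and the share of gene pairs that separate so was not computed. KO replicate 2 lay between 7.07 and 7.34 while KO replicate 1 lay between 2.34 and 3.84. Per count of Pdha1 there were 0.947 to 3.03 counts of Pdk1 in KO (median 1.77) and 0.570 to 0.731 in WT (median 0.684), again without overlap. With the second phosphatase gene, Pdp2, the separation was absent: per count of Pdp2 there were 0.691 to 1.65 counts of Pdk1 in KO (median 0.866) and 0.688 to 1.28 in WT (median 1.04). The counts of the 4 kinase genes Pdk1 to Pdk4 per count of both phosphatase genes were 1.54 to 2.78 in KO (median 1.70) and 1.56 to 2.10 in WT (median 1.94), and overlapped too. These ratios restate the same counts, are not corrected for length and were not tested.

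**Figure D3:**
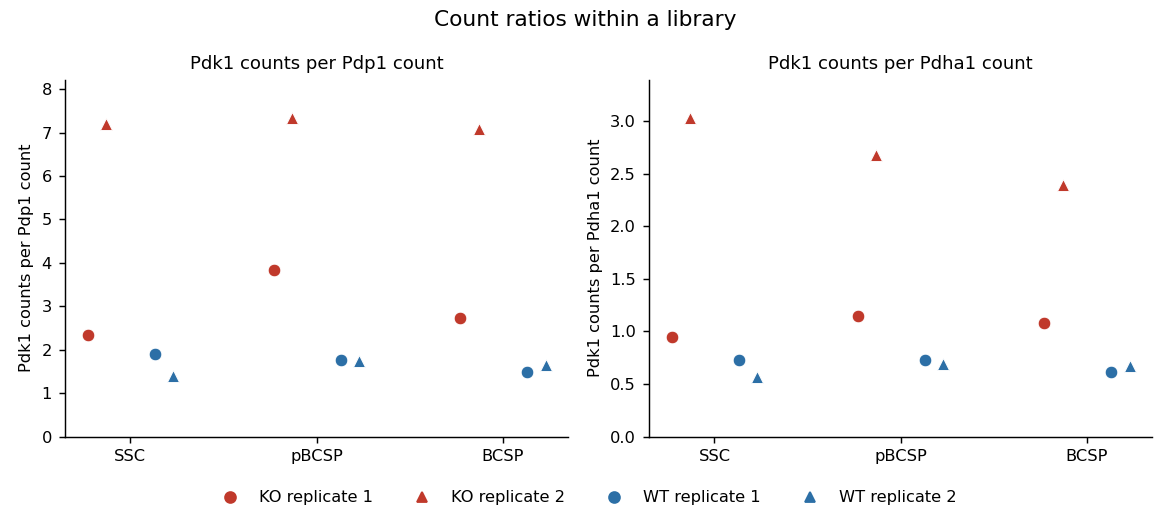
Counts of Pdk1 per count of Pdp1 (left) and of Pdha1 (right) in each library, by population, with KO in red left of WT in blue, circles for replicate 1 and triangles for replicate 2. Every KO library is above every WT library in both panels, and the KO replicate 2 triangles stand above the KO replicate 1 circles.

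The KO replicates differed from each other in a way that ran through all 3 populations. Relative to the WT mean of its population, KO replicate 2 had 1.86 to 2.12 times the Pdk1 level and 0.414 to 0.479 times the Pdp1 level, and KO replicate 1 had 1.37 to 1.64 times the Pdk1 level and 0.623 to 1.14 times the Pdp1 level. Pdk3 showed no such gap, at 1.29 to 1.65 times in KO replicate 2 and 1.42 to 1.60 times in KO replicate 1. Other values moved with the replicate: the median gene differed between the KO replicates by 1.30 log2 in SSC, 0.67 in pBCSP and 0.63 in BCSP, against 0.44, 0.40 and 0.35 between the WT replicates. The osteoblast markers (Runx2, Sp7, Col1a1, Bglap, Ibsp) summed to 1797 to 8663 CPM in KO replicate 2, 7232 to 19251 CPM in KO replicate 1 and 11920 to 40109 CPM in WT. Most of this was Col1a1, at 1470 to 18476 CPM in KO and 10933 to 39451 CPM in WT. On average 1 of the 5 markers was above WT and 4 were below it. The 1 above was Runx2, at 26.7 to 61.6 CPM in KO and 14.1 to 51.9 CPM in WT. Its level was above the WT mean of the population in 5 of 6 KO libraries. The 5 leukocyte markers summed to 9.68 to 24.4 CPM in KO replicate 2, 2.90 to 4.09 CPM in KO replicate 1 and 1.13 to 6.72 CPM in WT. Laptm5 alone made up 8.18 to 24.4 CPM in KO replicate 2, and the pan-leukocyte gene Ptprc was at 0 to 0.426 CPM in KO and 0 to 0.579 CPM in WT. The erythroid markers summed to 1.58 to 31.9 CPM in KO replicate 2, 6.81 to 12.3 CPM in KO replicate 1 and 21.8 to 257 CPM in WT. For the endothelial ones the sums were 0 to 2.37, 2.91 to 12.1 and 3.63 to 28.4 CPM in the same order. Adipocyte markers (Adipoq, Plin1, Fabp4, Cfd) summed to 0 to 2.31, 8.77 to 23.6 and 9.19 to 32.0 CPM. Skeletal muscle markers overlapped between the KO replicates, at 12.9 to 118, 53.7 to 313 and 20.2 to 473 CPM. The part of these differences in the levels of the 9 genes was not tested.

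**Figure D4:**
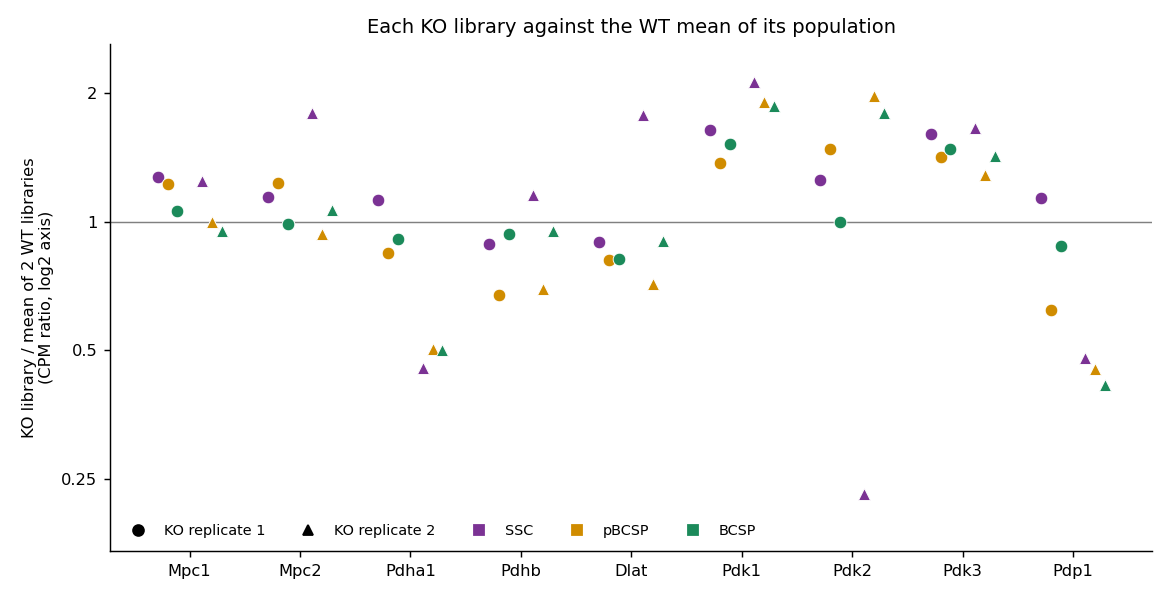
Level of each gene in each KO library as a ratio to the mean of the 2 WT libraries of its population (log2 axis), circles for KO replicate 1 and triangles for KO replicate 2, coloured by population. Pdha1 and Pdp1 are at 0.414 to 0.504 in all 3 KO replicate 2 libraries, Pdk3 is 1.29 to 1.65 in all 6 KO libraries, and SSC KO replicate 2 stands alone for Pdk2, Dlat and Mpc2.

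Around the 9 genes, the rest of the complex and its regulators gave 1 call among 5 tested genes, a lower one (0.206% of all genes), with a median of -0.56 log2. Pdk4, the kinase known to be induced by fasting and fatty acids, had 12.1 and 11.3 CPM in SSC KO and 30.9 and 32.7 CPM in SSC WT. It had 5.93 and 14.4 CPM in pBCSP KO and 18.6 and 24.3 CPM in pBCSP WT, and 7.48 and 8.64 CPM in BCSP KO and 28.6 and 21.6 CPM in BCSP WT. All 6 KO libraries lay below all 6 WT libraries, as for 347 genes (1.98%), and Pdk4 fell by 1.39 ± 0.26 log2 (adjusted p = 0.0490, edgeR; 3.66e-05 in DESeq2). The edgeR call was lost when any of 10 single libraries was left out, all but the 2 SSC KO libraries (highest adjusted p = 0.212). It was lost as well with the counts summed over the populations (log2 -1.31, adjusted p = 0.591), with a correlation between same-numbered libraries in limma-voom (log2 -1.38, adjusted p = 0.128), with pBCSP and BCSP alone (adjusted p = 0.0900), with library totals in place of TMM (adjusted p = 0.0580), with a replicate block (adjusted p = 0.0554) and with median-ratio scaling (adjusted p = 0.0501). Pdhx, which anchors E3 to the core, was below every WT library in all 6 KO libraries, at 23.8 to 34.4 CPM in KO and 34.5 to 51.8 CPM in WT (-0.54 ± 0.18 log2, adjusted p = 0.155). The E3 gene Dld (-0.56 ± 0.20 log2, adjusted p = 0.183), the second phosphatase Pdp2 (0.87 ± 0.22 log2, adjusted p = 0.0880) and Pdpr (-1.05 ± 0.75 log2, adjusted p = 0.471) did not pass either, and Pdha2 had 0 counts in all 12 libraries. Within the kinase family Pdk1 and Pdk3 were thus above WT and Pdk4 below it in every KO library. Pdk2 followed neither pattern, with 4 KO libraries above the WT mean of their population and 2 below.

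Of the other fates of pyruvate, 4 of 9 tested genes rose and 0 fell (median 1.13 log2), where 0.966% of all genes rose. They were Ldha (1.54 ± 0.23 log2, adjusted p = 0.0312) and Ldhb (1.13 ± 0.22 log2, adjusted p = 0.0494), which interconvert pyruvate and lactate, Slc16a3 (2.36 ± 0.37 log2, adjusted p = 0.0346), which exports lactate, and Pkm (1.36 ± 0.17 log2, adjusted p = 0.0261), which makes pyruvate, all in edgeR. Each of the 4 lost its call on leaving out any single WT library, or pBCSP KO replicate 2 or BCSP KO replicate 2. With the counts summed over the populations, which leaves 2 KO against 2 WT values and calls 0 genes, all 4 were at an adjusted p of 0.591, and all 4 calls were also lost with pBCSP and BCSP alone. The call of Ldhb was lost as well with limma-voom, with median-ratio scaling and with unscaled totals. Of the citric acid cycle, which takes up the acetyl-CoA, 0 of 17 genes passed, with 8 above 0 and 9 below (median -0.00365 log2). Its lowest p-values were those of Idh2 (0.81 ± 0.20 log2, adjusted p = 0.0845) and Sucla2 (-0.63 ± 0.16 log2, adjusted p = 0.0834). No gene passed among 8 of lipoate and thiamine supply (median -0.02 log2), 6 of the related 2-oxoacid dehydrogenases (median 0.19 log2), 12 tested mitochondrially encoded mRNAs (median 0.00404 log2) or 9 transcription factors known to act on Pdk genes (median -0.21 log2), among them Hif1a (-0.20 ± 0.18 log2, adjusted p = 0.563).

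Among all tested genes, those whose log2 CPM was most like that of a member over the 12 libraries were named by Pearson r. For Pdk1 they were Mgarp (0.976), Gm47003 (0.965) and Necab3 (0.963), and for Pdk3 Dpp7 (0.951), Pdia6 (0.937) and Txndc12 (0.930). For Pdha1 they were Cd68 (0.983), Strap (0.982) and Ccnl1 (0.978), and for Pdp1 Acot9 (0.979), Pdha1 itself (0.962) and Tcp11l2 (0.961). Pdha1 is the only member among the 3 nearest genes of another member. The libraries share genotype and replicate number, so these values describe the pattern and carry no test.

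The histone marks were read at the gene start as peaks deposited by the authors within 1000 bases of the most upstream RefSeq start, for the 8 members with a listed start. H3K4me3, the mark of promoters, had 1 list per population and genotype, and a peak was listed at 24 of 24 pairs of member and list in KO and 24 of 24 in WT. Of 11890 tested genes with a listed start, 90.9, 88.4 and 89.9% had one in SSC, pBCSP and BCSP KO and 89.4, 88.6 and 89.4% in WT, so the members are like most tested genes. The peaks were 1822 to 4346 bases wide in KO and 1948 to 4450 bases in WT. Mpc2 had the widest, at 3367 to 4346 bases in KO and 3779 to 4450 bases in WT, and its peak also covers the start of Dcaf6, which lies 797 bases upstream on the other strand. For Pdk1 the peak was 2536, 2653 and 2206 bases wide in SSC, pBCSP and BCSP KO and 2594, 2187 and 2734 bases in WT. For Pdk3 it was 2394, 1822 and 2091 bases in KO and 2378, 1957 and 2055 bases in WT. With 1 list per population and genotype there is no replicate check, and widths were not tested. Peaks were ranked by the authors' fold enrichment among all peaks of their list, at gene starts or not. No member's peak fell below the 52.1 percentile in KO or the 59.9 percentile in WT. Against peaks at the starts of tested genes, members lay on both sides of the median in pBCSP. In KO, with a median fold of 13.6, Pdha1, Pdk1 and Pdk3 (lowest, 9.16) were below it and the others above (highest Dlat, 17.1). In WT, with a median of 15.8, Pdha1, Pdhb, Pdk1 and Pdk3 were below it and the others above.

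**Figure D5:**
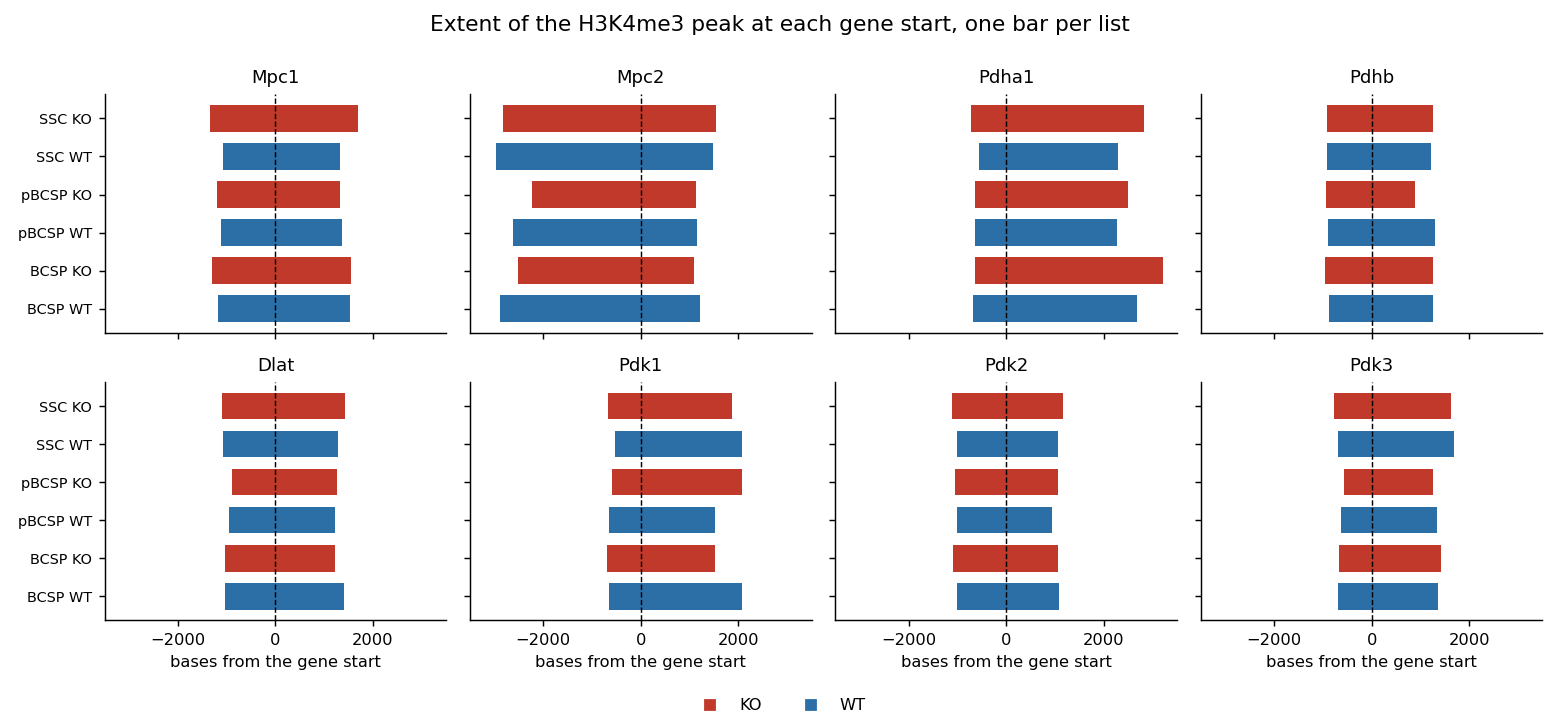
Extent of the H3K4me3 peak at the start of 8 genes in bases from the start (dashed line; positive is into the gene), with 1 bar per list and KO in red above WT in blue for each population. All 48 bars span the start, and the peak of Mpc2 reaches 2978 bases upstream at the farthest.

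H3K4me1, a mark of enhancers and of the flanks of promoters, was listed within 1000 bases of the start at 23 of 24 pairs in KO and 21 of 24 in WT. In pBCSP and BCSP every one of the 8 had it, where 91.1 and 90.9% of tested genes did in KO and 89.6 and 86.2% in WT. The pairs without one were all in SSC: Pdha1 in KO, and Pdha1, Pdk1 and Mpc1 in WT. The SSC WT list was also the shortest, with 75277 peaks against 113313 to 148530 in the other 5 lists, and 66.5% of tested genes had a peak there, against 88.7% in SSC KO. Where present, the Pdk1 peaks covered 1524 to 2826 bases in KO and 3198 to 3782 bases in WT. For each of the other members with a listed start, both ends of this range were higher in KO. Dlat peaks covered 1728 to 2510 bases in KO and 767 to 1964 bases in WT, and Mpc1 peaks 1476 to 2351 and 1329 to 1634 bases. Peaks were wider in KO at the starts of tested genes as a whole too. The median width of the peak with the highest -log10 q was 1262, 1447 and 1333 bases in SSC, pBCSP and BCSP KO. In WT it was 744, 1222 and 991 bases, so the wider peaks are no result about the members. With 1 list per population and genotype there is no replicate check, and these widths were not tested. With peaks of a -log10 q of at least 5 the share of pairs was 20.8% in KO (5 of 24) and 12.5% in WT (3 of 24). The share of all tested genes was not computed at that cutoff, so these values are no result about the members.

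H3K27ac, found at promoters and enhancers in use, had 2 lists per population and genotype, and was listed at 6 of 48 pairs in KO and 6 of 48 in WT. All 12 were in replicate 1, listed as broad peaks, and 0 were in replicate 2, listed as narrow peaks. In the replicate 1 lists of SSC, pBCSP and BCSP, 10.2, 16.2 and 19.0% of tested genes had a peak in KO and 7.73, 21.7 and 25.2% in WT. In the replicate 2 lists the shares were 2.51, 2.72 and 21.9% in KO and 0.328, 8.35 and 0.866% in WT. Mpc2 had a peak in 3 lists of KO and 3 of WT. Pdhb had one in pBCSP KO and BCSP KO and in 0 of 6 WT lists, Dlat in pBCSP KO, Pdha1 in SSC WT and BCSP WT and in 0 of 6 KO lists, and Mpc1 in BCSP WT. Pdk1, Pdk2 and Pdk3 had none in any of the 12 lists. Since replicate 2 held none of these peaks, differences between KO and WT lists have no replicate check. Pdp1 has no listed start and was read over its gene with 5000 bases on either side. There H3K4me3 had 1 peak in each of the 6 lists, 2126 to 2972 bases wide in KO and 2487 to 2778 bases in WT. H3K27ac had 1 peak, in BCSP WT replicate 1. H3K4me1 had 4 to 5 peaks in each KO list and 3 in each WT list. The KO lists of H3K4me1 were the longer ones in every population, and these counts were not tested.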

How the data were processed

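The authors deposited raw read counts per gene for 12 poly(A) RNA libraries and peak lists for 24 ChIP libraries on MNase-digested chromatin, and the 12 input libraries were not used. Per the submitters' processing notes the tools were MACS2 2.2.6, featureCounts 2.0.1, Bowtie2 2.3.5.1, SAMtools 1.9 and Trim Galore 0.6.6, on GRCm38, with roles and settings not given. Each deposited peak has a score, a fold enrichment and a -log10 q, which are the authors' own values and were not compared between lists. Peaks were listed per library, in a broad layout, or a narrow one for H3K27ac replicate 2. Counts were tested with edgeR 4.0.16 (TMM, filterByExpr, quasi-likelihood F test, 1 mean per population and genotype over 12 libraries, Benjamini-Hochberg over 17494 genes, threshold 0.05) in R 4.3.3, after the step was tested on simulated data. The simulated libraries were independent and varied less than those measured, so that check does not cover the spread and correlation of these data. Alternatives were DESeq2 1.42.0, limma 3.58.1, other scaling and filters, a replicate block and leaving out libraries. Same-numbered KO and WT libraries of a population deviated with r of 0.0098, -0.022 and -0.082, so their numbers were not taken as pairs. Same-numbered libraries of different populations within a genotype did deviate together (r of 0.28 to 0.49, consensus 0.329), which the edgeR and DESeq2 tests and intervals do not model. Standard errors are the log2 difference over the root of F, and intervals are 95%. Of 55487 gene IDs 55141 had a symbol. Promoters are those of RefSeq, with 8 of 9 members matched, and no genome was used. Depth was 15495915 to 22670899 counts, so 3 counts, the limit that a count of 0 allows, were 0.134 to 0.208 CPM for counting error only. The 9 genes are named in every comparison, with the genes of their pathway lists that passed, or had the lowest p, and all of the first such list. Members and lists were chosen with earlier results of these data known.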

Additional observations from a re-analysis of the deposited data

Results flagged for a closer look

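SSC KO replicate 2 stood far above the other 5 KO libraries for 3 of the 9 genes. Mpc2 was at 114 CPM there, and the next KO library was at 74.6 CPM. Pdhb was at 273 CPM against 209 CPM in the next KO library, and Dlat at 127 CPM against 70.6 CPM. This Pdhb value lay within the WT range of 173 to 283 CPM, while those of Mpc2 and Dlat lay above every WT library. The gap to the nearest library made up 0.685, 0.688 and 0.740 of the range of the 6 KO libraries for Mpc2, Pdhb and Dlat, above the 95% limit of Dixon's test for 6 values. Each gene was examined among the KO and among the WT libraries, 18 sets in all, and chance flags about 1 in 20. These libraries come from 3 populations, and the same library had counts in the fewest genes (13987).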

How the results depend on the processing

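Of 738 recomputed differences of the 9 genes, 671 kept their sign and their side of the threshold, 28 newly passed it and 39 changed sign. The numbers of genes called on average moved from 205 to 1693 (2 members) with DESeq2, 1882 (1 member) with no low-count filter, 661 without KO replicate 2, 9529 (4 members) without KO replicate 1, 44 with limma-voom, and 0 with pBCSP and BCSP alone (3684 at an unadjusted p under 0.05) or with populations summed (1505). Leaving out single libraries gave 0 to 6147 genes and 0 to 4 members. It gave 0 genes on leaving out any 1 WT library, pBCSP KO replicate 2 or BCSP KO replicate 2 (2242 to 3016 unadjusted), 29 when pBCSP KO replicate 1 was missing, 349 for BCSP KO replicate 1 and 6147 for SSC KO replicate 1. A replicate block gave 141 genes and 0 members, with Pdk1 at 0.78 log2 (adjusted p = 0.0546) and Pdk3 at 0.56 log2 (adjusted p = 0.0777, edgeR). Against 0 genes called, DESeq2 gave 151 in SSC, 91 in pBCSP, 108 in BCSP, 3 for the KO effect between populations, 58 within KO and 72 within WT. No filter gave 395, 260, 337, 50, 378 and 356 in the same order. Without KO replicate 1 these were 8818 (7 members), 2819 (4 members), 2977 (3 members), 4012 (2 members), 5311 (2 members) and 625. Without KO replicate 2 they were 14 in pBCSP, 51 within KO and 638 within WT, and median-ratio scaling gave 1 within WT. Single libraries left out gave 0 to 5908 genes and 0 to 3 members in SSC, 0 to 2082 and 0 to 1 between populations, 0 to 3497 and 0 to 2 within KO, and 0 to 2 genes within WT. Sign changes on average were Dlat at 0.045 and Pdk2 at -0.12 log2 without KO replicate 1, and Dlat at 0.0044 with populations summed. Without KO replicate 2, SSC gave Pdha1 0.17, Pdhb -0.18, Dlat -0.16, Pdk2 0.32 and Pdp1 0.19, and BCSP gave Mpc2 -0.016 and Pdk2 -0.0036 log2. Without KO replicate 1, pBCSP gave Mpc1 -0.016 and Mpc2 -0.11, and BCSP Mpc1 -0.10 log2. Pdhb in SSC was -0.075 log2 with unscaled totals. Mpc1 and Mpc2 in BCSP were -0.046 and -0.020 log2 with DESeq2 and with median-ratio scaling, -0.052 and -0.023 with unscaled totals, and -0.041 and -0.012 with no filter. Over single libraries left out, the average ran from -0.26 to 0.084 for Dlat and -0.27 to 0.52 for Pdk2. In SSC it ran from -1.13 to 0.16 for Pdha1, -0.18 to 0.22 for Pdhb, -0.16 to 0.84 for Dlat, -2.10 to 0.32 for Pdk2 and -1.05 to 0.19 for Pdp1. In pBCSP it ran from -0.13 to 0.50 for Mpc1 and -0.094 to 0.30 for Mpc2, and in BCSP from -0.12 to 0.085 for Mpc1, -0.063 to 0.13 for Mpc2, -0.26 to 0.11 for Pdhb and -0.0043 to 0.79 for Pdk2. The shares of pairs with an H3K4me1 peak were 20.8% in KO and 12.5% in WT for a -log10 q of at least 5, and 54.2% in WT within 500 bases. For H3K27ac they were 2.08% in both for that -log10 q, and 0 to 25% in KO and in WT by replicate. The share of all tested genes was not computed for that -log10 q or for 500 bases. The causes were not tested. Unscaled totals moved the median of all genes in SSC to -0.35 log2, against -0.22 with TMM. The fits without KO replicate 1 and with unscaled totals were added after seeing the data, and DESeq2 was run with independent filtering off.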
